A study of Mus musculus with 10 samples.

Results

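The replication-dependent histone genes are the multigene families that encode the linker histone H1 and the core histones H2A, H2B, H3 and H4 for newly made chromatin. Members were chosen by symbol: H1f1 to H1f5, and symbols starting H2ac, H2bc, H3c or H4c followed by a number (older names Hist1h to Hist4h). In all, 64 symbols of the gene table met the rule. Of these, 62 had a RefSeq transcript in both short-read files, out of 22990 genes listed in both: 5 of H1, 17 of H2A, 16 of H2B, 12 of H3 and 12 of H4. The other 2 symbols, H2ac14 and H2ac5-ps, had no RefSeq transcript.

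The study compared splicing between thymocytes that carry only CD4 (CD4SP, single-positive) or only CD8 (CD8SP), the helper and cytotoxic T cells that have passed selection in the thymus. Both came from C57BL/6 mice aged 6 to 8 weeks, with 2 or 3 thymi pooled per sample. Magnetic beads removed cells carrying the other coreceptor, and a sorter kept TCRβ+CD24- cells of each lineage. The 10 samples were 1 long-read library and 4 short-read samples per lineage. The short-read samples of a lineage differ by sequencing lane in their labels and share 1 deposited file, so each gene has 1 value per lineage, with no replicate, no test and no p-value. In bulk samples of this kind, fewer cells that make histone mRNA and less histone mRNA per cell cannot be told apart.

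Replication-dependent histone mRNAs are made in S phase, when a cell that copies its DNA must package the new copy. They mostly have no introns and end in a conserved stem-loop in place of a poly(A) tail. The stem-loop-binding protein (Slbp) holds that structure through processing, export, translation and decay. Most peripheral and mature thymic T cells rest outside the cell cycle, whereas several populations of earlier thymocytes divide. The genes lie in clusters and are near copies of each other, so reads of 1 gene can be assigned to another.

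The 3′ stem-loop defines the family, and it was read from GENCODE M21 transcripts (GRCm38). The consensus stem-loop, searched by its known pattern on the transcript strand, was found in 42 of the 62 members with a coding sequence, between 21 and 58 bases after the end of the coding sequence. Many of the other members have a transcript model that stops near the coding sequence, so no match there says only that these letters are not in the model. There were 8 distinct loops of 16 bases. One of them occurred in 24 genes of H1, H2A, H2B and H3, whereas H4 genes carried loops of their own. The following are shown because they are the commonest loop, the forms that differ from it by class, and the loops of genes with high levels. Capitals mark the stem-loop, with 5 bases on each side, in the letters of DNA.

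H1f2: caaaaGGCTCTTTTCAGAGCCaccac
H2bc8: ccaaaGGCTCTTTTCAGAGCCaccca
H2ac20: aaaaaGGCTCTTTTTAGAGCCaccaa
H3c6: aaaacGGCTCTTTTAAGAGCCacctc
H4c4: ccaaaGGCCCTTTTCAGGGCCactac
H4c2: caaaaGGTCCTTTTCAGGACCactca
H4c1: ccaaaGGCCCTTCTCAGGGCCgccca

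The form of H1f2 and H2bc8 was that of the 24 genes. The form of H3c6 was found in 5 genes (3 of H3, 2 of H2B). That of H4c4 was found in 6 H4 genes and that of H4c2 in 2, while those of H2ac20 and H4c1 were each found in 1.

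Promoters were read from RefSeq sequence of GRCm38.p6, 250 bases before to 50 after each start, for 57 of the members (58 sequences). Both strands were searched, each motif on its own, so matches of different motifs can overlap. CCAAT, the letters of the CCAAT box, was present in 86.2% of member promoters against 37.4% of all 32851 promoters. All promoters of H1, H2A, H2B and H3 members held it, against 27.3% of H4 promoters. TATAAA, a form of the TATA box, was in 58.6% of member promoters and 13.6% of all. The octamer ATTTGCAT was in 46.7% of H2B and 35.3% of H2A promoters, in 0% of those of H1, H3 and H4, and in 1.74% of all. AAACACA, a motif known from H1 promoters, was in 80% of H1 promoters, in 13.8% of all member promoters and in 7.18% of all promoters. In the 100 bases before the start, AAACACA was in 0 of 5 H1 promoters (2.19% of all promoters) and ATTTGCAT in 0 of 17 H2A promoters and 40% of H2B promoters (0.645% of all). A match is a description of letters and not a site.

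The 4 stretches below show the arrangement in promoters of genes with high levels. Capitals mark matches to the 4 motifs on either strand, so that CCAAT on the other strand reads ATTGG. The first is the whole interval between the starts of H2ac8 and H2bc8, which point away from each other (chr13:23571221-23571399, plus strand, 179 bases). The others end at the base before the start: H1f2 (chr13:23738657-23738806, plus strand), H2bc18 (chr3:96269600-96269699, plus strand) and H4c4 (chr13:23581468-23581567, plus strand).

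H2bc8: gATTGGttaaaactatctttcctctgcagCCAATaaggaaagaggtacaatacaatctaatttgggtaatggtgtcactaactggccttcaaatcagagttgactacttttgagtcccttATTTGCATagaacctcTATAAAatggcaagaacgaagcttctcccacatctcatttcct
H1f2: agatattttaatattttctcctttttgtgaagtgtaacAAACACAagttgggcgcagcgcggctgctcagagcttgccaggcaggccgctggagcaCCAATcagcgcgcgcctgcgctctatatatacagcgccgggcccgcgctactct
H2bc18: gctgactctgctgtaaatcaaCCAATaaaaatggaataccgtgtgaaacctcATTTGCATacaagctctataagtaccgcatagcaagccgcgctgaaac
H4c4: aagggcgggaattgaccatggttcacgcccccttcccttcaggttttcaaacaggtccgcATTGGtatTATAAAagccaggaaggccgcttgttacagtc

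The coreceptor genes followed the labels of both lineages in direction. Cd4 had 107 FPKM (fragment counts scaled by transcript length and by library size) in CD4SP and 0.872 in CD8SP, and Cd8b1 at 25.6 and 464. Of the 5 T cell markers (Cd3e, Cd3d, Cd3g, Cd247, Lck), 0 were called in either direction, with summed levels of 575 and 718 FPKM. Of 8 immature thymocyte markers, 5 reached 1 FPKM and 2 of these, Rag1 and Arpp21, were higher in CD4SP (summed level 42.8 FPKM in CD4SP and 28.5 in CD8SP). The call of Arpp21 was lost over exons (1.05 and 0.505 FPKM). Although CD24- cells were sorted, Cd24a had 11.8 and 10.1 FPKM, and Dntt had 10.8 and 9.15, both without a call. The B cell markers summed to 0.633 and 4.6 FPKM, nearly all of it Cd79b (0.583 and 4.58), while Pax5 was listed at 0 in both. Cd79a was also listed at 0 in both, but over exons it had 7.05 FPKM in CD4SP and 0.248 in CD8SP, opposite in direction to Cd79b. The myeloid and dendritic markers summed to 2.45 and 0.627 FPKM, with 0 genes at 1 FPKM. The erythroid markers summed to 6.14 and 3.84 FPKM, mostly Hbb-bs (3.67 and 3.11) and Hba-a2 (2.01 and 0.304). Hba-a2 was called higher in CD4SP. Alas2 was listed at 0 in both, with 0.723 and 0.438 FPKM over exons. The stromal markers summed to 15.2 and 14.8 FPKM, mostly Pecam1, with Col1a1 and Foxn1 at 0 in both. The part of these cell types in the histone values was not tested.

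Replication-dependent histone mRNA had a higher summed level in CD8SP than in CD4SP in all 5 classes. Summed over all 62 members, RefSeq transcripts had 1469 FPKM in CD4SP and 4450 in CD8SP (3.03-fold). Of the summed FPKM of all genes, the members made up 1.15% in CD4SP and 2.57% in CD8SP. H2A, a core histone that pairs with H2B, had 150 FPKM in CD4SP and 587 in CD8SP (3.92-fold). H4, which pairs with H3, had 512 and 1880 FPKM (3.67-fold). H2B stood at 343 and 954 FPKM (2.78-fold), and H3 at 284 and 681 (2.4-fold). The linker histone H1, which binds DNA between nucleosomes, differed least, at 180 and 348 FPKM (1.93-fold).

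A call needed 1 FPKM or more in either lineage, a log2 ratio of CD8SP to CD4SP (pseudocount 0.1) of 1 or more in size, and deposited intervals that did not overlap. The 4 core classes passed, with log2 ratios of 1.97 for H2A, 1.88 for H4, 1.48 for H2B and 1.26 for H3, and H1 did not, at 0.95. All genes at 1 FPKM or more in both lineages had a median log2 ratio of 0.29. With CD8SP scaled to bring that median to 0, the class sums differed by 3.21-fold (H2A), 3 (H4), 2.28 (H2B), 1.97 (H3) and 1.58 (H1). H3, at a log2 ratio of 0.98, then no longer passed by RefSeq transcripts. Counted over exons from all transcripts on the same strand, the unscaled sums differed by 3.4-fold (H2A), 3.05 (H4), 2.88 (H3), 2.78 (H2B) and 2.22 (H1). The order of H2B and H3 thus depended on the value used. Scaled by the same factor, H3 over exons had a log2 ratio of 1.24, above the threshold.

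**Figure D1:**
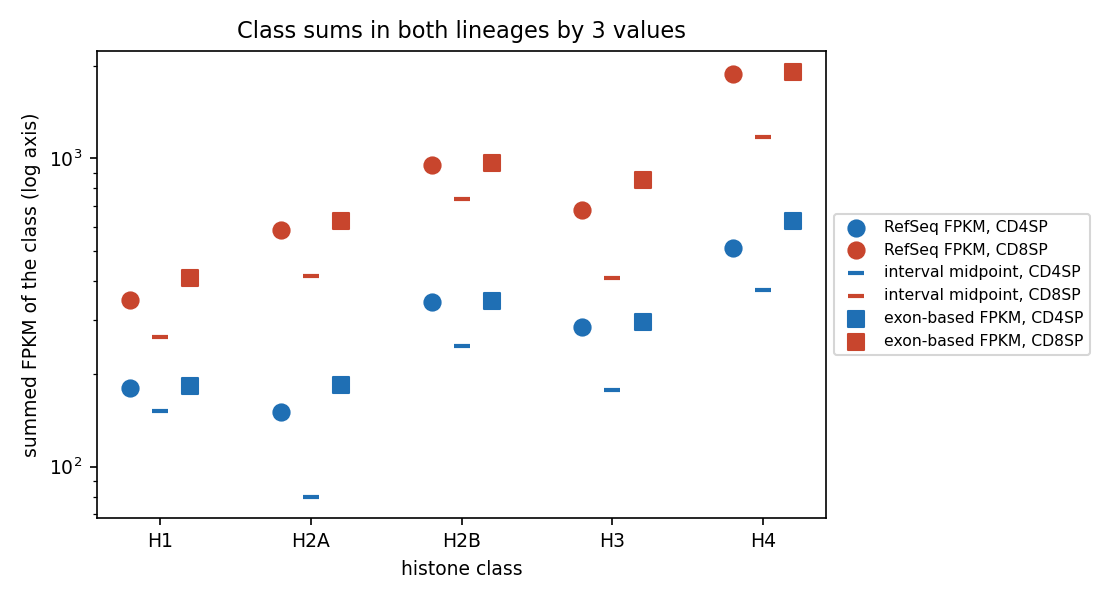
Summed FPKM of each histone class (log axis) in CD4SP (blue) and CD8SP (red), as deposited for RefSeq transcripts (circles), as midpoints of the deposited intervals (dashes) and counted over exons from all transcripts on the same strand (squares). The CD8SP symbol lies above the CD4SP symbol of the same kind in all 5 classes, for H4 at 1880 against 512 FPKM by RefSeq transcripts and at 1177 against 374 by midpoints.

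The deposited intervals did not hold most of these values. In each class the summed FPKM lay above the summed interval in both lineages: for H4, 341 to 408 in CD4SP and 1122 to 1231 in CD8SP. Among the 51 members at 1 FPKM or more in either lineage, the FPKM lay above its own interval in 36 in CD4SP and 40 in CD8SP, and 16 were outside in 1 lineage only. Over all genes tested, 15.5% in CD4SP and 16.5% in CD8SP were outside. Where outside, the members' FPKM was a median of 1.56 times the interval midpoint in CD4SP and 1.67 times in CD8SP. Midpoints moved the ratio of 10 of the 51 members by more than 1.5 times, upward for H2bc7, H3c1, H3c3, H3c13 and H4c14 and downward for H2ac21, H3c6, H4c1, H4c6 and H4c12. By midpoints, the classes differed by 5.19-fold (H2A), 3.14 (H4), 3 (H2B), 2.31 (H3) and 1.74 (H1).

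H4 had the highest sum in both lineages, followed by H2B. H4 made up 34.9% of the members' summed FPKM in CD4SP and 42.2% in CD8SP, and H1 12.3% and 7.82%. H2A had the lowest RefSeq sum in CD4SP, close to H1 over exons (184 and 183 FPKM), and H1 the lowest in CD8SP. Core histones enter the nucleosome in equal number, but the H4 sum was 3.42 times the H2A sum in CD4SP and 3.2 times in CD8SP. The RefSeq models differ by class, with a median of 312 bases for H4, 393 for H2A and 1561 for H1. In 31 of the 62 members the model is as long as the coding sequence alone. The part of model length in the levels between classes was not tested.

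Of the 62 members, 51 reached 1 FPKM in either lineage. Of these, 40 were called higher in CD8SP, or 78.4%, where 15.1% of all 8318 genes tested were called in that direction. Another 2 members were called higher in CD4SP (H1f4 and H2bc7), where the share over all genes was 5.46%. The members' median log2 ratio was 1.52, against 0.31 for all genes tested. After scaling of CD8SP to a median log2 ratio of 0, 33 members passed toward CD8SP and 3 toward CD4SP, where 9.25% and 7.96% of 8137 genes did. The 7 that no longer passed were H1f3, H2ac10, H2bc4, H2bc12, H2bc15, H2bc18 and H3c13, and H2bc21 was newly called, toward CD4SP. Over all genes, the calls were 1255 and 454 as deposited and 753 and 648 after scaling. By class, the members called higher in CD8SP were 3 of 5 for H1, 9 of 11 for H2A, 11 of 14 for H2B, 8 of 11 for H3 and 9 of 10 for H4.

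**Figure D2:**
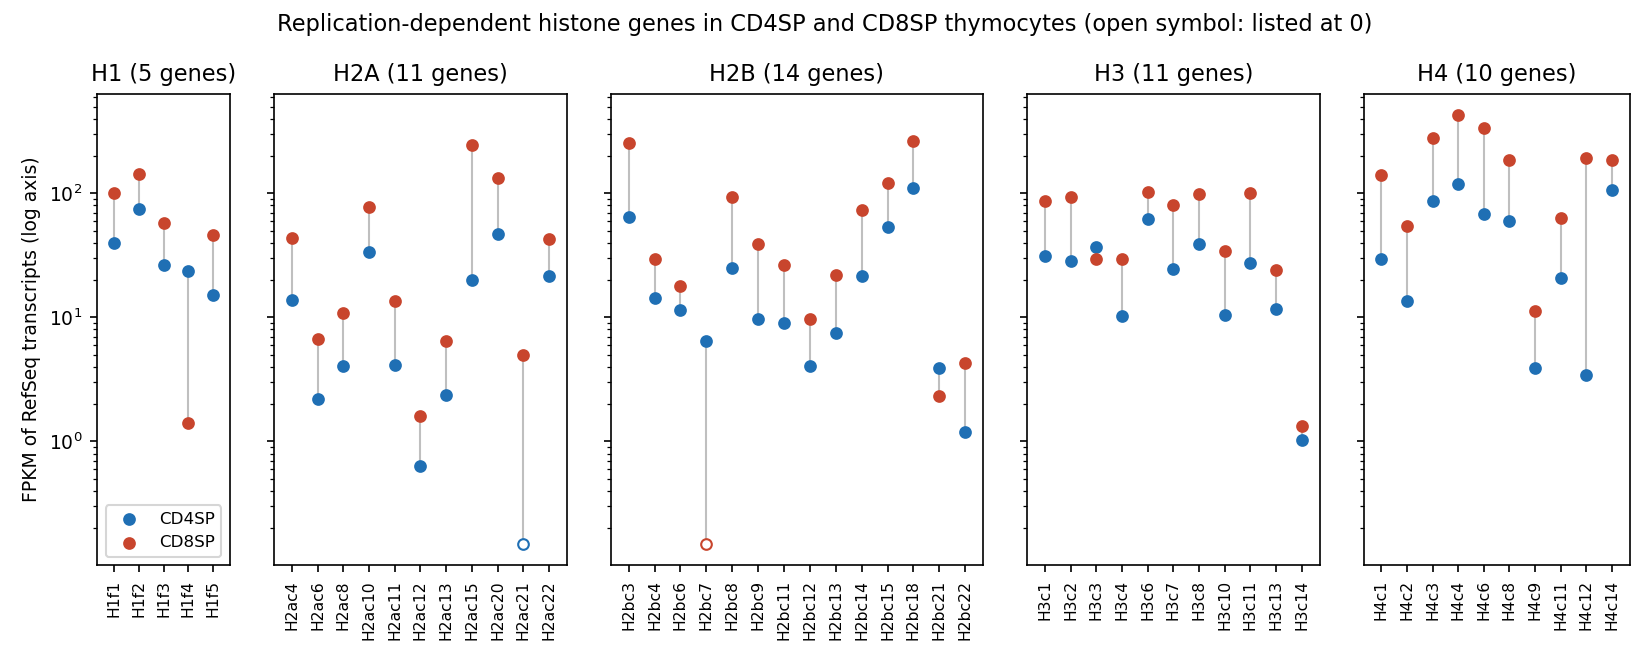
FPKM (log axis) of the 51 members at 1 FPKM or more in either lineage, by class, in CD4SP (blue) and CD8SP (red), with a grey line joining the values of a gene and an open symbol for a value listed at 0. The red symbol is the higher one for all genes but H1f4, H2bc7, H2bc21 and H3c3.

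H1 members bind linker DNA and compact chromatin. H1f2 (older name Hist1h1c, chromosome 13, 23738807 to 23739531, GRCm38) had the highest level of the class, at 74.8 FPKM in CD4SP and 143 in CD8SP. Its log2 ratio of 0.93 was under the threshold. H1f1 stood at 40.1 and 99.7 FPKM and H1f3 at 26.5 and 58.1, both called. H1f5 had the largest ratio of the class, at 15.1 and 45.9 FPKM (3.04-fold). H1f4 (chromosome 13, 23621777 to 23622558, minus strand) went the other way, at 23.8 FPKM in CD4SP and 1.42 in CD8SP. In CD8SP, however, an assembled transcript of 68 FPKM on the same strand covered 85.1% of the exons of H1f4 and also overlapped H2bc6. Counted over exons from all transcripts on the same strand, H1f4 had 25.5 FPKM in CD4SP and 60.9 in CD8SP, a log2 ratio of 1.25 in the opposite direction. With that value, H1 as a class reached 183 and 408 FPKM and passed, at a log2 ratio of 1.15.

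H2A and H2B form the dimers at the face of the nucleosome. Among the H2A genes, H2ac20 had the highest level in CD4SP, at 47.3 FPKM against 133 in CD8SP (2.81-fold). H2ac15 (Hist1h2ak, chromosome 13, 21753377 to 21753912) had the highest level in CD8SP, at 246 FPKM against 20.1 in CD4SP, and alone made up 42% of the class sum there. Its 12.3-fold difference stood at 5.81-fold when counted over exons (48.7 and 283 FPKM). An assembled transcript of 28.6 FPKM covered all of its exons in CD4SP, and one of 36.4 FPKM in CD8SP.

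H2ac10 stood at 33.6 and 77.2 FPKM and H2ac4 at 13.9 and 43.5. H2ac22, at 21.5 and 42.9 FPKM, was just short of the threshold at a log2 ratio of 0.99 (1.10 by interval midpoints). At lower levels, 5 genes had ratios of 2.51 to 3.26: H2ac11 (4.17 and 13.6 FPKM), H2ac8 (4.04 and 10.8), H2ac13 (2.39 and 6.51), H2ac6 (2.19 and 6.7) and H2ac12 (0.637 and 1.6). Of these 5, H2ac12 was not called, since its intervals overlapped. H2ac21 was listed at 0 in CD4SP and at 5.01 FPKM in CD8SP, a call that was lost when transcripts on either strand were counted over its exons (5.85 and 8.09 FPKM).

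Among the H2B genes, H2bc18 (Hist2h2bb, chromosome 3, 96269700 to 96270192) had the highest level in both lineages, at 111 FPKM in CD4SP and 263 in CD8SP (2.36-fold). H2bc3 was close to it in CD8SP, at 253 FPKM against 63.9 in CD4SP (3.96-fold). H2bc15 stood at 53.4 and 120 FPKM, H2bc8 at 25.1 and 94.2, and H2bc14 at 21.4 and 72.8. H2bc9 had the largest ratio of the class (9.65 and 39.3 FPKM, 4.08-fold). The other called genes, H2bc4, H2bc11, H2bc12, H2bc13 and H2bc22, stood between 1.19 and 14.3 FPKM in CD4SP and were 2.05-fold to 3.63-fold higher in CD8SP. H2bc6 (11.4 and 17.8 FPKM) did not pass. It passed with transcripts on either strand (16.9 and 36.9 FPKM) and with assembled spliced transcripts added, at log2 ratios of 1.13 and 2.81. In CD8SP, a spliced transcript of 68 FPKM over H2bc6 also covered 85.1% of the exons of H1f4. An opposite-strand one of 82 FPKM over H2bc6 also overlapped H2bc7. The FPKM of such transcripts can count toward both genes.

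Another 2 H2B genes were lower in CD8SP by RefSeq transcripts. H2bc7 (chromosome 13, 23573760 to 23574207, minus strand) was listed at 0 in CD8SP, against 6.47 FPKM in CD4SP. In CD8SP, a spliced transcript of 82 FPKM assembled on the opposite strand covered 21.3% of its exons. The interval of that transcript was 39.8 to 45.7 FPKM, below its value. With transcripts on either strand counted, the exons of H2bc7 held 6.47 and 17.4 FPKM, a log2 ratio of 1.42. On the same strand they held 6.47 and 0 FPKM, so the CD8SP value came from the opposite strand only. H2bc21 (Hist2h2be, chromosome 3, 96221072 to 96223738), known for its use in olfactory neurons, which do not divide, had 3.91 FPKM in CD4SP and 2.32 in CD8SP and was not called. The consensus stem-loop was not among the letters of its GENCODE transcript. Over exons on the same strand, H2bc21 stood at 4.23 and 2.32 FPKM (log2 ratio -0.84), and on either strand at 4.23 and 5.36. In CD8SP, a transcript of 3.08 FPKM on the opposite strand covered 98.5% of its exons and also overlapped H2ac20 and H2ac21.

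H3 and H4 form the tetramer at the core of the nucleosome and carry many of its regulatory marks. By RefSeq transcripts H3c6 had the highest level in both lineages, at 62.3 FPKM in CD4SP and 103 in CD8SP, and did not pass at a log2 ratio of 0.72. By interval midpoints its direction turned (62.3 and 45.1 FPKM, log2 ratio -0.47), and over exons H3c3 was higher than H3c6 in CD8SP (154 and 130 FPKM). H3c11 had the largest ratio of the class (27.6 and 100 FPKM, 3.62-fold), followed by H3c2 (28.3 and 93.4, 3.3-fold). H3c1, H3c4, H3c7, H3c8 and H3c10 stood between 10.3 and 39.3 FPKM in CD4SP and were 2.51-fold to 3.27-fold higher in CD8SP. H3c13 stood at 11.6 and 24.2 FPKM (2.08-fold).

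H3c3 was the H3 gene with the lower RefSeq value in CD8SP, at 36.6 FPKM in CD4SP and 29.4 in CD8SP, and was not called. By interval midpoints its direction turned (17.3 and 29.4 FPKM, log2 ratio 0.76). An assembled transcript of 116 FPKM in CD8SP covered 90% of its exons on the same strand. Counted over exons, H3c3 stood at 36.6 and 154 FPKM (4.2-fold) and passed. H3c14 stood at 1.03 and 1.33 FPKM without a call, and H3c15, whose coding sequence is identical to it, was under 1 FPKM in both.

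The H4 genes included the highest levels of all members. H4c4 (Hist1h4d, chromosome 13, 23581568 to 23581969) had 118 FPKM in CD4SP and 428 in CD8SP (3.61-fold). H4c6 had 67.8 and 337 FPKM (4.97-fold) and H4c3 87.2 and 281 (3.22-fold). The log2 ratio of H4c6 was 2.31, or 1.20 by interval midpoints (67.8 and 155 FPKM), and that of H4c1 was 2.23, or 1.13 by midpoints. H4c8 (60 and 184 FPKM), H4c1 (29.8 and 140), H4c11 (20.9 and 63.8), H4c2 (13.5 and 54.8) and H4c9 (3.94 and 11.2) were also called, at 2.84-fold to 4.7-fold. H4c14, the H4 gene on chromosome 3, was second in CD4SP at 107 FPKM but differed least, with 187 FPKM in CD8SP and a log2 ratio of 0.80, and did not pass. By interval midpoints it did, at 1.46.

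H4c12 (Hist1h4k, chromosome 13, 21750145 to 21750553) had the largest ratio by RefSeq transcripts among members above 0 in both lineages, at 3.45 FPKM in CD4SP and 192 in CD8SP (55.7-fold). In CD4SP an assembled transcript of 65.8 FPKM covered 98.7% of its exons on the same strand. Counted over exons, H4c12 had 68.4 and 192 FPKM (2.81-fold), within the range of the other H4 genes.

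Over several members with extreme ratios, assembled transcripts thus carried more FPKM than the RefSeq transcript in 1 lineage. In 8 of the 51 members the log2 ratio moved by more than 0.5 when all transcripts over the exons were counted on the same or on either strand: H1f4, H2ac15, H2ac21, H2bc7, H2bc21, H3c3, H3c13 and H4c12. These 8 were singled out after their values were seen. In the other 43 the log2 ratio lay between 0.35 and 2.31, with a median of 1.53. The 4 tested members with a ratio below 0 by RefSeq transcripts are all among the 8. Over exons on the same strand, H2bc7 (log2 ratio -6.04) and H2bc21 (-0.84) stayed below 0. Over exons on the same strand, 42 members passed toward CD8SP and 1 (H2bc7) toward CD4SP, where 7.47% and 3.38% of 9785 genes were called in these directions. On either strand the counts were 43 and 0, where 6.95% and 3.26% of 10142 genes were called. In that count, the CD8SP value of H2bc7 came from the opposite strand only.

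**Figure D3:**
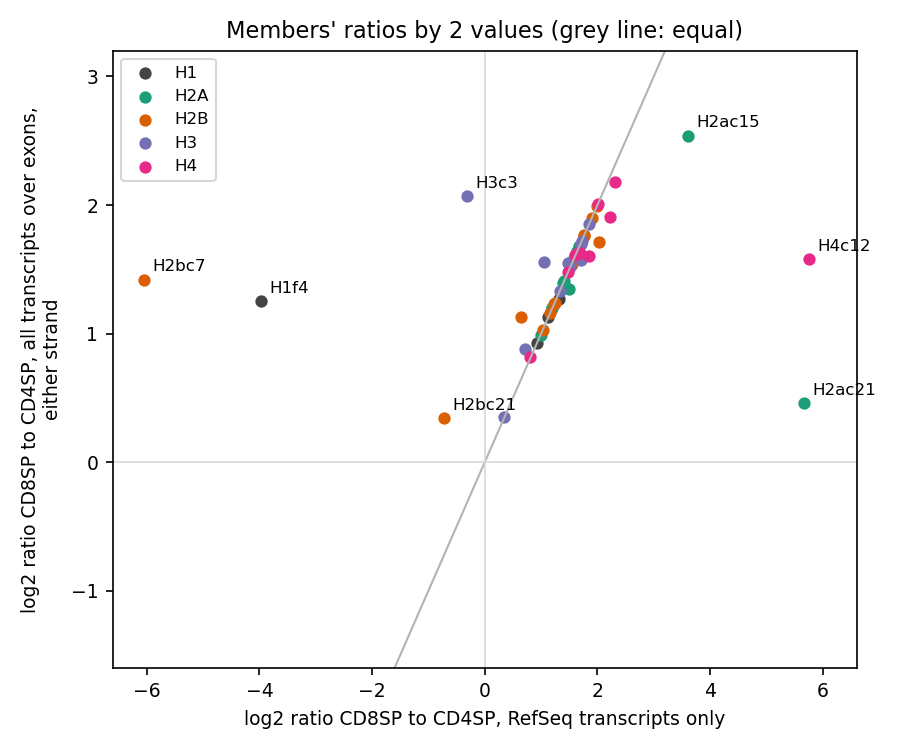
Log2 ratio of CD8SP to CD4SP for the 51 members by RefSeq transcripts alone (horizontal) and by all transcripts over the exons on either strand (vertical), coloured by class, with equal values on the grey line. H1f4 and H2bc7, at -3.97 and -6.04 by RefSeq transcripts, lie at 1.25 and 1.42 on the vertical axis, and H4c12 moves from 5.76 into the range of the other H4 genes.

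The 11 members under 1 FPKM in both lineages were H2ac1, H2ac7, H2ac18, H2ac19, H2ac23, H2ac24, H2bc1, H2bc23, H3c15, H4c17 and H4c18. Of these, 6 were listed at exactly 0 in both (H2ac7, H2ac18, H2ac23, H2ac24, H2bc1 and H4c18). H2ac1 and H2bc1 are known as testis genes that replace other H2A and H2B during sperm formation. The other 9 share every 75-base window of their coding sequence with another member, as do 2 of the 51 members tested, for which the median share was 67.1%. Since such genes share reads, a value near 0 does not tell whether the gene was silent. Coding sequences of equal length within a class were on median 97.2% identical for H2A, 97.4% for H2B, 97.2% for H3 and 94.7% for H4.

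The members lie in 3 stretches. The stretch of chromosome 13 from 23531044 to 23934913 holds 30 members and carried 65.3% of the members' FPKM in CD4SP and 63.4% in CD8SP. Its sum was 959 FPKM in CD4SP and 2820 in CD8SP (2.94-fold). Of 27 members tested there, 21 passed toward CD8SP and 2 toward CD4SP, beside the 15.1% and 5.46% over all genes. The stretch from 21715711 to 22043658 holds 22 members, with sums of 227 and 1013 FPKM (4.47-fold), or 320 and 1050 (3.28-fold) over exons, and of 17 members tested 15 were called toward CD8SP and 0 toward CD4SP. On chromosome 3, the 10 members between 96219885 and 96270192 summed to 283 and 617 FPKM (2.18-fold), and of 7 tested 4 were called toward CD8SP and 0 toward CD4SP. The chromosome 3 sum no longer passed after scaling, at a log2 ratio of 0.84.

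By the starts of the promoter sequences, an H2A and an H2B gene start 163 to 280 bases apart and point away from each other in 9 places. A single interval then holds both promoters, as in the H2ac8 and H2bc8 sequence above. Both partners reached 1 FPKM in 6 of these 9 pairs, and in all 6 both had a higher FPKM in CD8SP. By gene coordinates, H2ac20 and H2bc21, and H2ac6 and H2bc4, also point apart with nearby starts but were not among the 9. By RefSeq transcripts, H2ac20 (47.3 and 133 FPKM) was higher in CD8SP and H2bc21 (3.91 and 2.32) lower. Both H2ac6 (2.19 and 6.7) and H2bc4 (14.3 and 29.4) were higher in CD8SP. Of all 51 members tested, 47 had a higher FPKM in CD8SP, so the direction is not particular to pairs. H2bc7, at 6.47 FPKM in CD4SP and 0 in CD8SP, was left out of the 6 because its partner H2ac7 was listed at 0 in both. H2ac8 was 2.67-fold and H2bc8 3.75-fold higher, H2ac11 and H2bc11 3.26-fold and 2.94-fold, H2ac12 and H2bc12 2.51-fold and 2.37-fold, and H2ac13 and H2bc13 2.73-fold and 2.91-fold. H2ac15 and H2bc15 differed in ratio, at 12.3-fold and 2.24-fold (5.81-fold and 2.24-fold over exons), as did H2ac22 and H2bc22, at 1.99-fold and 3.63-fold. Partners with like ratios could differ in level: H2ac8 had 4.04 FPKM in CD4SP and H2bc8 at 25.1. In the pair H2ac22 and H2bc22 the H2A gene was the higher one (21.5 and 1.19 FPKM in CD4SP). The pair of the testis genes H2ac1 and H2bc1 was at or near 0 in both lineages.

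Other histone variants have polyadenylated mRNAs that are also made outside S phase. Of 11 such genes, 8 reached 1 FPKM. Calls numbered 2 toward CD8SP and 1 toward CD4SP, where 15.1% and 5.46% of all genes tested were called. The median log2 ratio was 0.05, against 0.31 for all genes tested. The called ones in CD8SP were H2ax (14.2 and 40.5 FPKM), the variant phosphorylated at DNA breaks, and Cenpa (1.78 and 4.24), the H3 variant of centromeres, whose call was lost over exons. H1f0, the linker histone of resting and differentiated cells, was higher in CD4SP, at 5.44 FPKM against 0.379. The genes of the replacement variant H3.3 had the highest levels, with H3f3b at 157 and 109 FPKM and H3f3a at 57.6 and 52.1, and neither was called. H2az1 was listed at 0 in both although 3.57 and 3.3 FPKM lay over its exons, so an exact 0 in these files can be a failed estimate.

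A separate set of genes forms and processes the histone mRNA end. Of 17 such genes, 16 reached 1 FPKM. Calls numbered 2 toward CD8SP and 0 toward CD4SP, where 15.1% and 5.46% of all genes tested were called. The median log2 ratio was 0.58, against 0.31 for all genes tested. Slbp, which binds the stem-loops shown above, had 7.38 FPKM in CD4SP and 18.8 in CD8SP (2.55-fold). Casp8ap2, a component of the histone locus body, stood at 3.09 and 6.61 FPKM, a call lost over exons (7.17 and 10.1). Npat, the coactivator of histone gene transcription, stood at 3.98 and 4.69 FPKM and was not called.

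Of 21 histone chaperones, 19 reached 1 FPKM. Calls numbered 4 toward CD8SP and 1 toward CD4SP, where 15.1% and 5.46% of all genes tested were called. The median log2 ratio was 0.51, against 0.31 for all genes tested. The 4 were Chaf1a (0.751 and 2.98 FPKM), a subunit of the factor that places H3 and H4 behind the fork, Asf1b (2.74 and 9.05), which hands H3 and H4 to it, Mcm2 (8.34 and 21.4), a helicase subunit that binds H3 and H4, and Rbbp4 (8.77 and 18.9), whose call was lost over exons. Atrx, which places H3.3 at repeats together with Daxx, was higher in CD4SP by RefSeq transcripts (22.8 and 4.42 FPKM) but not over exons (30.9 and 26.1).

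The S phase list held 35 genes, of which 33 reached 1 FPKM. Calls numbered 26 toward CD8SP and 0 toward CD4SP, where 15.1% and 5.46% of all genes tested were called. The median log2 ratio was 1.41, beside 1.52 for the histone members and 0.31 for all genes tested. The largest ratios belonged to the cyclin gene Ccne2 and the replicative helicase gene Gins2, both listed at 0 in CD4SP and at 2.91 and 2.02 FPKM in CD8SP, and to the helicase loader Cdc6 (0.0554 and 2.26). Over exons these ratios were smaller, with log2 values of 1.08 for Ccne2 (1.49 and 3.26 FPKM), 3.14 for Gins2 and 1.78 for Cdc6, and all 3 were still called. Next came E2f1, a transcription factor of S phase genes (0.433 and 2.28 FPKM), Cdc45 (1.28 and 5.12), Mcm5 (4.93 and 18.5), Chaf1a and Mcm6 (10.1 and 36.5). Slbp, Mcm2, Chaf1a and Chaf1b stand in this list and in another.

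Of 17 genes of G2 and M phase, 16 reached 1 FPKM. Calls numbered 13 toward CD8SP and 0 toward CD4SP, where 15.1% and 5.46% of all genes tested were called. The median log2 ratio was 1.28, against 0.31 for all genes tested. The 8 with the largest ratios were the centromere protein gene Cenpf (0.269 and 1.51 FPKM), the topoisomerase gene Top2a (5.52 and 18.5), Aurkb, Ccnb2, Cdc20, Birc5, the kinase gene Cdk1 (0.949 and 2.7) and Kif11. Their differences ran from 2.5-fold for Kif11 to 5.61-fold for Cenpf. Over exons the calls of Cenpf (1.16 and 2.39 FPKM, log2 ratio 0.98) and Ccnb2 (log2 ratio 0.75) were lost. The lists are described by counts and medians only, and the part of a larger share of dividing cells in the histone difference was not tested.

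**Figure D4:**
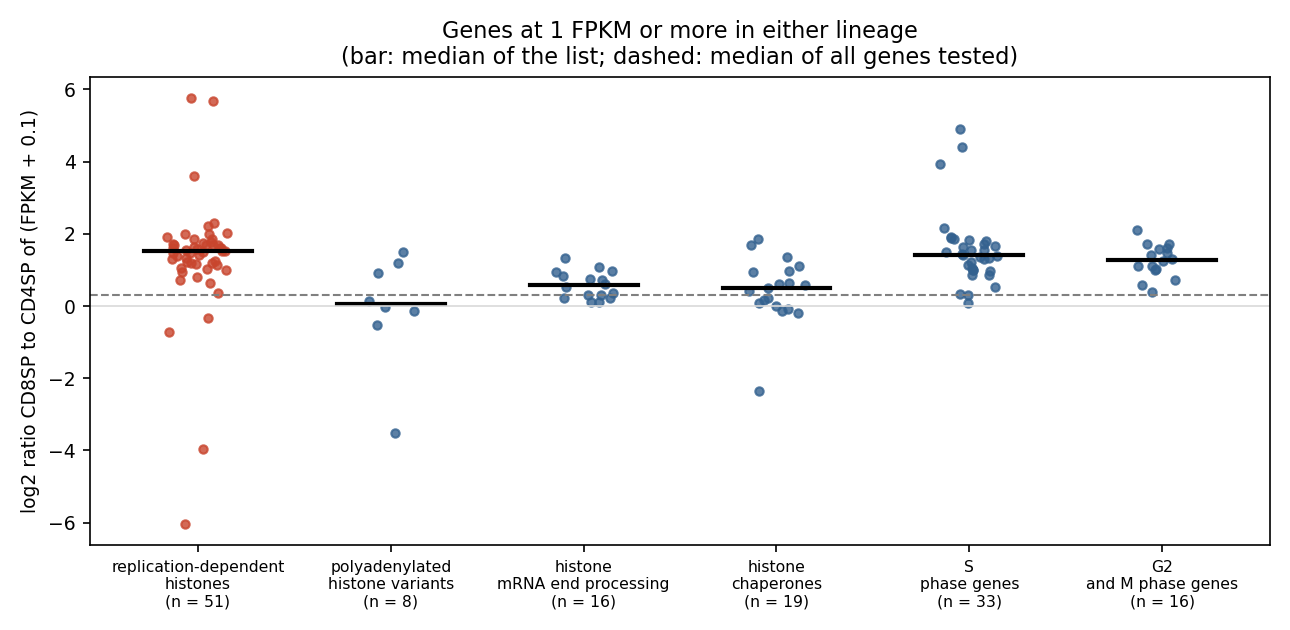
Log2 ratio of CD8SP to CD4SP of (FPKM + 0.1) for genes at 1 FPKM or more in either lineage, by list, with the median of each list (black bar) and of all genes tested (dashed, 0.31). The bars of the histone members, the S phase and the G2 and M phase genes lie at 1.52, 1.41 and 1.28, and that of the polyadenylated variants at 0.05.

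Long reads held no isoform of a member. Of 8289 isoforms listed for CD4SP, 0 were of a member, as were 0 of 9476 for CD8SP, which allows shares of up to 0.0362% and 0.0317% (3 counts of the total, for counting error only). The members are short, with a median RefSeq model of 411 bases, while isoforms had a median length of 2882 bases in CD4SP and 2597 in CD8SP, and 1.23% and 1.7% of them were at most 700 bases long. Among other genes at 50 FPKM or more with transcripts of at most 1000 bases, 9 of 57 in CD4SP (15.8%) and 21 of 85 in CD8SP (24.7%) had an isoform, against 0 of 9 and 0 of 23 members. Above 1000 bases, these shares were 61.4% and 79.6% of other genes, and 0 of 1 and 0 of 3 members. The part of length and of a missing poly(A) tail in this was not tested.

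Isoforms assigned to genes of polyadenylated histone variants were listed among the long reads. H3f3a had 2 isoforms in CD4SP and 1 in CD8SP, H3f3b had 1 in CD8SP, Macroh2a1 had 1 in each and H2az2 had 1 in CD4SP. These 7 isoforms were 1078 to 2606 bases long, and none was listed as a full match of an annotated transcript. Those of H3f3b and H2az2 had 1 exon, as did 1 of H3f3a in each lineage. The 2 of Macroh2a1 had 10% A in the genome after the 3′ end, and the other 5 had between 70% and 95%.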

How the data were processed

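Per the labels' protocols, ribosomal RNA was removed for the short-read libraries and total RNA was amplified as full-length cDNA for the long-read ones. Per the file headers, Cufflinks wrote the deposited FPKM and its interval for each short-read transcript. The submitters' processing notes name GRCm38, TopHat2 2.0.14, Cufflinks 2.1.1, GSNAP, RSEM 1.3.1, FastQC and Trimmomatic, without the role of each. The strand setting and the read number per library were not given in the sources used here. The long-read tables hold the length, exon number and percent of A after the 3′ end per isoform, per the file headers. A deposited table of chained isoforms with 2 value columns was not used, as its identifiers were not matched to genes.

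RefSeq transcripts were matched to symbols of the GRCm38.p6 gene table (30018 of 30604), and FPKM and interval bounds were summed per gene and per class. A gene was tested at 1 FPKM or more in either lineage. The exon-based value counts every transcript of at least 200 bases by the fraction of the gene's exons that it overlaps, and is no independent check because it uses the same FPKM. The scale of log2(FPKM + 0.1) understates differences of low genes. Folds are ratios of FPKM. Members at 1 FPKM or more are named with values, and genes of the other lists where called, up to 8 per list by size of the log2 ratio, with Slbp and Npat always. H3f3a and H3f3b, H2az1, and the genes with long-read isoforms were named after their values were seen. The members and lists were chosen with earlier results of these data known. Alternatives were other pseudocounts, filters, scaling, interval midpoints, strand and members left out. Python 3.11.15, pandas 2.3.3 and bedtools 2.31.1 were used. The call rule was also run on simulated data with planted changes and intervals centred on each value. Most members' values lay outside their intervals, so that run does not tell how the rule works for them.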

Additional observations from a re-analysis of the deposited data

How the results depend on the processing

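The sums of the 5 classes and of all members were recomputed in 60 combinations of sum and alternative, and all kept a higher value in CD8SP, while 57 kept their side of the threshold. The log2 ratio ranged from 0.66 to 1.15 for H1, 1.39 to 2.37 for H2A, 1.19 to 1.59 for H2B, 0.98 to 1.53 for H3 and 1.59 to 1.88 for H4. H1 passed over exons on the same or either strand (1.15). After scaling of RefSeq values, H3 (0.98) and the chromosome 3 sum (0.84) did not pass. Members called higher in CD4SP fell from 2 to 1 over exons and to 0 on either strand. The log2 ratio of H1f4 reversed to 1.25 over exons on the same or either strand and that of H2bc7 to 1.42 on either strand. For H2bc7 this rests on a transcript of the opposite strand.

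Polyadenylated variants called higher in CD8SP went from 2 to 1 with a pseudocount of 1, after scaling, over exons on the same or either strand, with assembled spliced transcripts added and with a filter of 5 FPKM. The same settings, except the filter, took end processing genes from 2 to 1. Chaperones called higher in CD4SP went from 1 to 0 over exons on the same or either strand and with spliced transcripts added, and to 2 without a filter. S phase genes called fell from 26 to 16 with a filter of 5 FPKM, under which fewer genes are tested. G2 and M phase genes fell from 13 to 8 with a pseudocount of 1 or after scaling, and to 6 with that filter. The share of all genes tested called toward CD8SP also fell, from 15.1% to 9.25% after scaling. It was 7.47% over exons on the same strand and 6.95% on either strand. Toward CD4SP these shares were 5.46%, 7.96%, 3.38% and 3.26%. For the other settings no such share is given, so those counts stand without a background. Where no construction is named, the cause was not tested.

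In the 100 bases before the start, TATAAA was in 31% of member promoters, ATTTGCAT in 10.3% and AAACACA in 3.45%. Over all promoters these shares were 5.56%, 0.645% and 2.19%. The interval midpoints, either strand, added spliced transcripts and genes with an older Hist name were chosen as alternatives after seeing the data. No paired analysis was possible because the lanes of each lineage are pooled in 1 file. With 1 value per lineage, differences between mice or libraries cannot be told apart from differences between lineages, and the intervals cover the authors' estimation only.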

Other observations

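Genes with an older Hist name but a symbol outside the rule were measured in the same way. H4f16 had 8.43 FPKM in CD4SP and 19.3 in CD8SP (2.29-fold, called higher in CD8SP), and H2aw at 11.1 and 13.1 FPKM (1.19-fold, not called). The testis linker histone gene H1f6 stood at 0.132 and 0.134 FPKM.

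Assembled transcripts with exons over 2 or more members numbered 7 in CD4SP and 8 in CD8SP. In CD8SP, one of 2 exons ran from 23551065 to 23763564 on chromosome 13 and overlapped H3c1, H4c1 and H4c6, at 3.89 FPKM, and another of 24 FPKM, from 23560942 to 23745544, overlapped H3c3 and H3c6. Members with a RefSeq model over 1000 bases, of which 8 were tested, had a median log2 ratio of 0.79, with 3 called higher in CD8SP and 1 in CD4SP. The 43 with shorter models had a median of 1.54, with 37 and 1 called. Over all genes tested, 15.1% and 5.46% were called in these directions. The long-model member called toward CD4SP was H1f4, whose log2 ratio of -3.97 turned to 1.25 over exons. The part of model length in this was not tested.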
